A study of Homo sapiens with 6 samples.

Results

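SRF, EGR1, FOS, FOSB, FOSL1, FOSL2, JUN, JUNB, JUND and IER2 form a group of 10 genes made up of the serum response factor, the subunits of the AP-1 transcription factor and fast-responding genes of the growth factor response. They were chosen by symbol, as genes of 1 pathway, at a time when earlier results of these data were known. All 10 were found among the 62703 genes counted and all 10 passed the filter on low counts, which left 17901 genes to test. The series holds 6 strand-specific RNA-seq libraries of polyadenylated transcripts from 22Rv1, a line of human prostate cancer cells. Cells of 3 libraries (siCtrl) received 25 pmol of a pool of non-targeting small interfering RNAs, and cells of 3 libraries (siMED12) received as much of a pool against MED12, part of the kinase module that regulates Mediator, the bridge between transcription factors and RNA polymerase II. Transfection took place 24 h after seeding, the medium was exchanged after another 6 h and cells of both groups were harvested on day 3 in serum-containing medium. One cell line was studied, the labels name no stimulus before harvest, and in RNA from bulk cultures fewer cells of a type and less RNA per cell cannot be told apart. The labels do not state that the replicates were separate cultures, although the study describes its experiments in general as biological replicates, so that the P-values measure the spread between these libraries.

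SRF is a DNA-binding protein that recognises the CArG box, a site of A and T bases framed by CC and GG, and works with 2 kinds of partner: ternary complex factors such as ELK1 and ELK4, which are phosphorylated by ERK, and the myocardin-related factors MRTFA and MRTFB, which respond to free actin. FOS, FOSB, EGR1, JUNB, IER2 and SRF itself are immediate-early genes, whose transcription starts within minutes of a growth factor or stress signal without new protein synthesis and soon fades. FOS and JUN proteins pair through leucine zippers to form AP-1, which binds promoters and enhancers of genes for growth, adhesion and matrix breakdown. Only JUN proteins can bind as pairs of their own kind, and JUND is the member of that family that is also made steadily in resting cells.

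The libraries held 16136699 to 17012788 counts assigned to genes, and 3 reads corresponded to 0.175 to 0.19 CPM (reads per 1000000 of the TMM-adjusted library total). MED12 was at 67.8, 77.7 and 72.6 CPM in siCtrl replicates 1 to 3 and at 23.9, 14.97 and 30.1 CPM in siMED12, which matched the labels (log2 fold change -1.66, adjusted P = 0.0314 with edgeR, and an adjusted P of up to 0.19 when 1 library was left out). Libraries that carried the same replicate number deviated together from their group means. Values without the number in the fit are the primary test. Values with it as a blocking term are added for the genes of the group and of the pathway lists. The share of counts from mitochondrially encoded genes followed the number as well, from 4.43% and 4.79% in the libraries numbered 1 to 10% and 10.1% in those numbered 3.

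The sequences before the start sites are shown because they hold sites of the kinds that SRF and AP-1 are known to bind. Promoters were taken from RefSeq (GRCh38.p14), with 9 of the 10 genes matched and FOSL1 without an entry. The 250 bases upstream of the start sites of SRF and EGR1 hold 2 CArG boxes each, written in capitals, and are given 5′ to 3′ on the plus strand.
SRF, chr6:43171019-43171268: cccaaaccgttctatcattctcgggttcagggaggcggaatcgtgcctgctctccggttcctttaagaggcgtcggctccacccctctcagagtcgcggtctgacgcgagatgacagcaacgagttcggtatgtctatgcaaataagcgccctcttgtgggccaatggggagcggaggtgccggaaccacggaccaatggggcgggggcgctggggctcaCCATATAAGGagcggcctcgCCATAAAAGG
EGR1, chr5:138465229-138465478: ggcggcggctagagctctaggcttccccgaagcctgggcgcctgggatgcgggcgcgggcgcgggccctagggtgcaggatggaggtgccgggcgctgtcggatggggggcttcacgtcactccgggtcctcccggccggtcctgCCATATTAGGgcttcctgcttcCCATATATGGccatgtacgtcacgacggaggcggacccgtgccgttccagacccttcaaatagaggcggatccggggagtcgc
In SRF the boxes lay at -30 to -21 and at -10 to -1 relative to the start site, and in EGR1 at -105 to -96 and at -83 to -74. When the window was extended to 500 bases before and 50 bases after the start site, EGR1 gained 3 further boxes, and FOS and FOSB held 1 each. The stretches around the FOS and FOSB boxes, on the plus strand with the box in capitals, and the stretch of the JUN promoter that holds an AP-1-like TGACATCA site, on the minus strand with that site in capitals, read as follows.
FOS, chr14:75278499-75278538: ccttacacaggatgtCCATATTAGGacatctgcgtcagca
FOSB, chr19:45467707-45467746: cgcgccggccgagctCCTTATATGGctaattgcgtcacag
JUN, chr1:58784092-58784129: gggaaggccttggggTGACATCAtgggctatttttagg
A CArG box was present in the 550-base windows of 4 of the 9 genes and of 2.55% of 27305 promoters of all genes (1.29% in the shorter RefSeq window of 300 bases). Because the genes were chosen as parts of the SRF and AP-1 pathway, these shares are a description and not a test. The other motifs, searched on both strands like the CArG box, were TGACATCA (3.58% of all longer windows, JUN only among the 9), the cyclic AMP response element TGACGTCA (2.32%, FOSB and JUND), the AP-1 site TGAGTCA (8.14%, FOSL2 only), the EGR1 site GCGTGGGCG (1.12%, in none of the 9) and the ETS site CCGGAAGT (5.05%, in none of the 9). No match in the 9 windows overlapped another. A match describes letters and not binding, and a window without one says nothing of the factor.

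**Figure D1:**
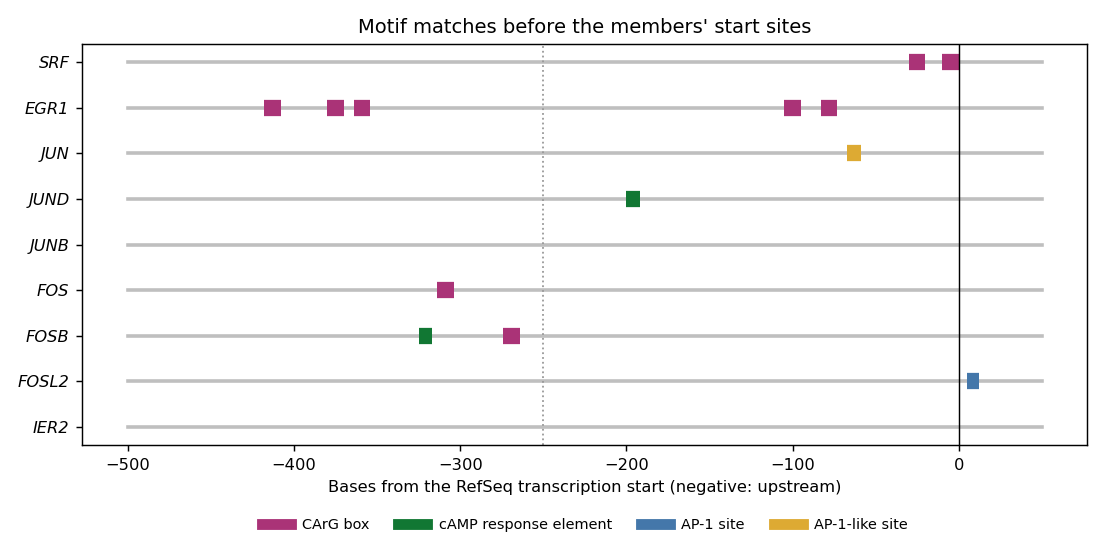
Positions of motif matches in the windows from 500 bases before to 50 bases after the RefSeq start site of 9 of the 10 genes, with distance from the start site in bases on the x axis and the dotted line, 250 bases upstream, marking the edge of the RefSeq window. SRF holds its 2 CArG boxes next to the start site, EGR1 holds 5, FOS and FOSB hold 1 each further upstream, and JUNB and IER2 show no match.

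Knockdown of MED12 was compared with control to ask how the mRNAs of SRF, AP-1 and the immediate-early response stood after 3 days. SRF, EGR1 and JUN were lower in every siMED12 library than in every siCtrl library. FOS, JUNB and FOSL2 differed in both directions among the pairs of replicate numbers, and no gene of the group was called higher. Without the block, 0 of the 10 genes passed an adjusted P of 0.05 in edgeR in either direction, against 0.413% of all genes tested called lower and 0.151% called higher. At an unadjusted P below 0.05, 3 genes were lower (SRF, EGR1 and JUN, against 7.93% of all genes) and 0 were higher (against 7.65%). The DESeq2 Wald test called 1 gene lower, SRF (adjusted P = 0.00253), and 0 higher, against 3.12% and 2.06% of the genes to which it gave an adjusted P. Limma called 0 in either direction, against 0.436% lower and 0.151% higher. With the replicate number as a block, 7 of the 10 genes fell (SRF, EGR1, FOSB, JUN, JUND, FOSL2 and IER2), against 16.2% of all genes called lower, and 0 rose, against 17.1% called higher. FOS, JUNB and FOSL1 did not pass. The groups did not overlap for 3 of the 10 genes, all lower in siMED12, against 10.9% of all genes lower and 11.2% higher. The median log2 fold change of the 10 genes was -0.41, or -0.40 with the block, beside 0.02 over all genes tested in both fits.

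**Figure D2:**
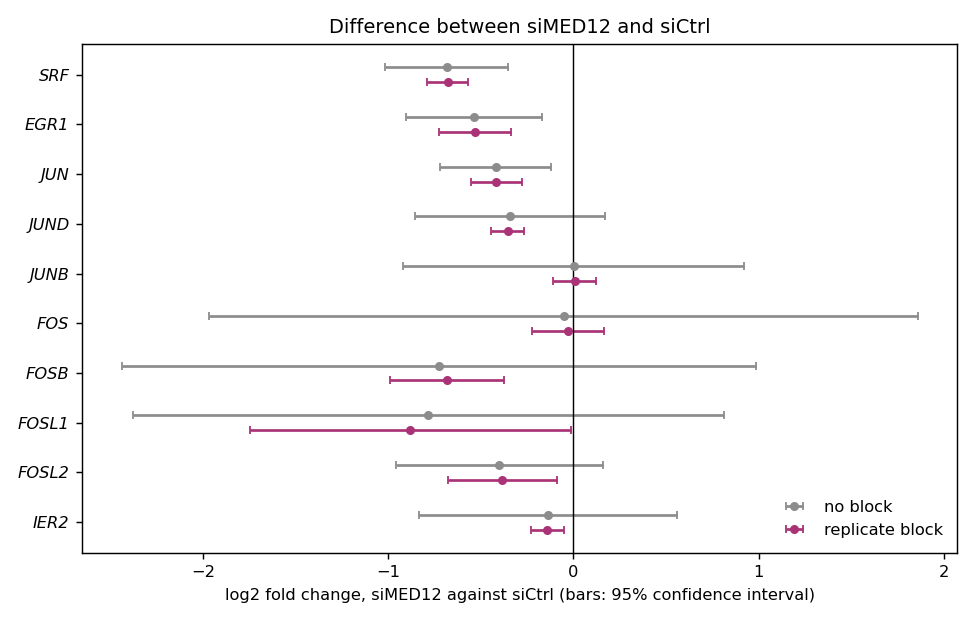
Log2 fold change of siMED12 against siCtrl for the 10 genes (x axis) in edgeR without the block (grey) or with the replicate block (purple), with bars for the 95% confidence interval. The points of the 2 fits lie close to each other, the blocked intervals are the narrower, and those of SRF, EGR1, JUN, JUND, FOSB, FOSL2, IER2 and of FOSL1, which did not pass after adjustment, end below 0.

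SRF (ENSG00000112658.8, chr6:43171269-43181506, plus strand), the factor that reads the CArG box, was at 121, 165 and 161 CPM in siCtrl replicates 1 to 3 and at 84.1, 88.7 and 106 CPM in siMED12. All 3 siMED12 libraries lay below all siCtrl libraries, and the mean went from 149 ± 24.5 to 92.9 ± 11.4 CPM (SD, n = 3 each). Within the pairs of replicate numbers the difference was -30.5%, -46.4% and -34.5%. This gave a log2 fold change of -0.69 (SE 0.14, 95% confidence interval -1.02 to -0.35, adjusted P = 0.0808 in edgeR), and with the block SRF fell by 37.6% (log2 fold change -0.68, SE 0.05, adjusted P = 5.52e-13). It stood at rank 106 of the 17901 genes when these were ordered by the blocked P-value. The log2 fold change stayed between -0.84 and -0.61 without the block when single libraries were left out, and between -0.77 and -0.60 with the block when both libraries of a replicate number were left out.

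The partners of SRF were examined next. Of 6 cofactor genes 5 could be tested, MYOCD having no counts in any library, and 0 passed without the block. With the block 1 of the 5 rose and 1 fell, shares near those of all genes (17.1% and 16.2%). MRTFB, the actin-sensing coactivator, rose from 69.5 ± 14.8 to 84.9 ± 12.5 CPM (block adjusted P = 1.39e-04, 0.486 without the block), and ELK4, a ternary complex factor, fell from 106 ± 6.81 to 89.6 ± 13.2 CPM (block adjusted P = 2.82e-04, 0.39 without the block). For MRTFA, ELK1 and ELK3 the block adjusted P was 0.164, 0.526 and 0.73.

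EGR1 (ENSG00000120738.8, chr5:138465479-138469303, plus strand) encodes a zinc finger factor and carries 5 of the CArG boxes shown above. The 3 siCtrl libraries gave 24.6, 19.6 and 25.8 CPM, and the siMED12 libraries gave 16.1, 14.4 and 17.7 CPM. The highest siMED12 library thus lay below the lowest siCtrl library, and the means were 23.3 ± 3.31 and 16.1 ± 1.67 CPM (SD, n = 3 each). The paired differences of -34.5%, -26.4% and -31.3% varied little. Without the block the log2 fold change was -0.54 (SE 0.16, adjusted P = 0.164, edgeR), and with the block EGR1 fell by 30.9% (SE of the log2 fold change 0.10, adjusted P = 2.83e-05).

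JUN (ENSG00000177606.8, chr1:58776845-58784048, minus strand), the founding AP-1 subunit, was at 59.9, 62.8 and 47.9 CPM in siCtrl and at 39.7, 46.4 and 41.3 CPM in siMED12. Here too the groups did not overlap, with siCtrl replicate 3 and siMED12 replicate 2 next to each other. The log2 fold change was -0.42 (SE 0.13, 95% confidence interval -0.72 to -0.12, adjusted P = 0.176), and with the block JUN fell by 25.1% (adjusted P = 6.39e-06, edgeR). JUND (ENSG00000130522.6, chr19:18279694-18281622, minus strand), the steadily expressed subunit, was at 216, 339 and 260 CPM in siCtrl and at 152, 271 and 220 CPM in siMED12. The groups overlapped, libraries numbered 2 were the highest in both, and each siMED12 library was below the siCtrl library of its number (-29.9%, -20.2% and -15.3%). The log2 fold change was -0.34 (SE 0.23, adjusted P = 0.53, edgeR) and with the block JUND fell by 21.8% (SE 0.04 on the log2 scale, adjusted P = 3.61e-08).

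JUNB (ENSG00000171223.6, chr19:12791486-12793315, plus strand), a JUN protein that often opposes JUN at its targets, was at 34.3, 84.4 and 86.6 CPM in siCtrl and at 35.6, 88.2 and 81.5 CPM in siMED12. Both groups had a mean of 68.4 CPM, with an SD of 29.6 and 28.6. The blocked log2 fold change was 0.01 (95% confidence interval -0.11 to 0.12, adjusted P = 0.957, edgeR), and its sign changed with the scaling, to -0.00245 with DESeq2 size factors. The unblocked interval was wider, from -0.92 to 0.92. Of the 1830 exonic bases of JUNB 259 are shared with HOOK2 on the opposite strand, and the use of strand in counting was not stated.

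FOS (ENSG00000170345.10, chr14:75278826-75282230, plus strand), the AP-1 subunit best known for its brief induction, was at 3.75, 39.1 and 29.0 CPM in siCtrl and at 4.22, 33.9 and 31.1 CPM in siMED12. The libraries numbered 1 were low and those numbered 2 and 3 high in both groups. Pair differences were 12.5%, -13.3% and 7.00%. Without the block the log2 fold change was -0.05 (SE 0.84, adjusted P = 0.985, edgeR), with a wide 95% confidence interval from -1.97 to 1.86. The blocked log2 fold change of -0.03 (SE 0.10, 95% confidence interval -0.23 to 0.17, adjusted P = 0.854, edgeR) became 0.01 under scaling to library size only. FOSB (ENSG00000125740.14, chr19:45467995-45475179, plus strand), the closest relative of FOS among the immediate-early genes, was at 2.80, 9.49 and 20.9 CPM in siCtrl and at 1.72, 7.13 and 11.2 CPM in siMED12. Each library numbered 3 was the highest of its group, and each siMED12 library was below its siCtrl partner (-38.4%, -24.8% and -46.4%). Without the block the log2 fold change was -0.73 (SE 0.75, adjusted P = 0.721). With the block FOSB fell by 37.8% (adjusted P = 0.000456, edgeR), a call that was lost when the libraries numbered 3 were left out (log2 fold change -0.51, adjusted P = 0.0873).

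FOSL1 and FOSL2 encode the Fos-related antigens, subunits that lack the strong activating end of FOS and appear later after a stimulus. FOSL1 (ENSG00000175592.9, chr11:65892049-65900573, minus strand) had few reads, with 11, 27 and 30 reads in siCtrl and 2, 16 and 22 reads in siMED12. Each siMED12 library was below its siCtrl partner (-81.85%, -45.2% and -24.7%), and the groups overlapped. Without the block the log2 fold change was -0.78 (SE 0.70, adjusted P = 0.663, edgeR). With the block it was -0.88 (SE 0.43, adjusted P = 0.114, edgeR), and neither fit called a difference. FOSL2 (ENSG00000075426.12, chr2:28392448-28417317, plus strand) was at 13.5, 10.5 and 7.498 CPM in siCtrl and at 9.09, 6.90 and 7.89 CPM in siMED12. The pairs numbered 1 and 2 were lower in siMED12 (-32.7% and -34.3%) and the pair numbered 3 was not (5.19%). The log2 fold change was -0.40 (SE 0.24, adjusted P = 0.49). With the block FOSL2 fell by 23.4% (adjusted P = 0.0372, edgeR), a call that was lost when the libraries numbered 1 or 2 were left out (adjusted P = 0.24 and 0.185), with the DESeq2 Wald test (0.187), with limma (0.0502) and with scaling to library size only (0.065).

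IER2 (ENSG00000160888.7, chr19:13150411-13154911, plus strand), a nuclear protein of the immediate-early response, was at 107, 214 and 184 CPM in siCtrl and at 95.6, 199 and 165 CPM in siMED12. The groups overlapped almost fully, and the paired differences of -10.5%, -7.24% and -10.5% were small and alike. Without the block the log2 fold change was -0.14 (SE 0.30, adjusted P = 0.89). With the block IER2 fell by 9.34% (SE of the log2 fold change 0.04, adjusted P = 0.0121, edgeR), the smallest of the 7 called differences. The call was lost with scaling to library size only (adjusted P = 0.0727) and when the libraries numbered 3 were left out (0.069). More than any other gene of the group IER2 shares exonic sequence with opposite-strand genes, 1608 of 3079 bases.

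**Figure D3:**
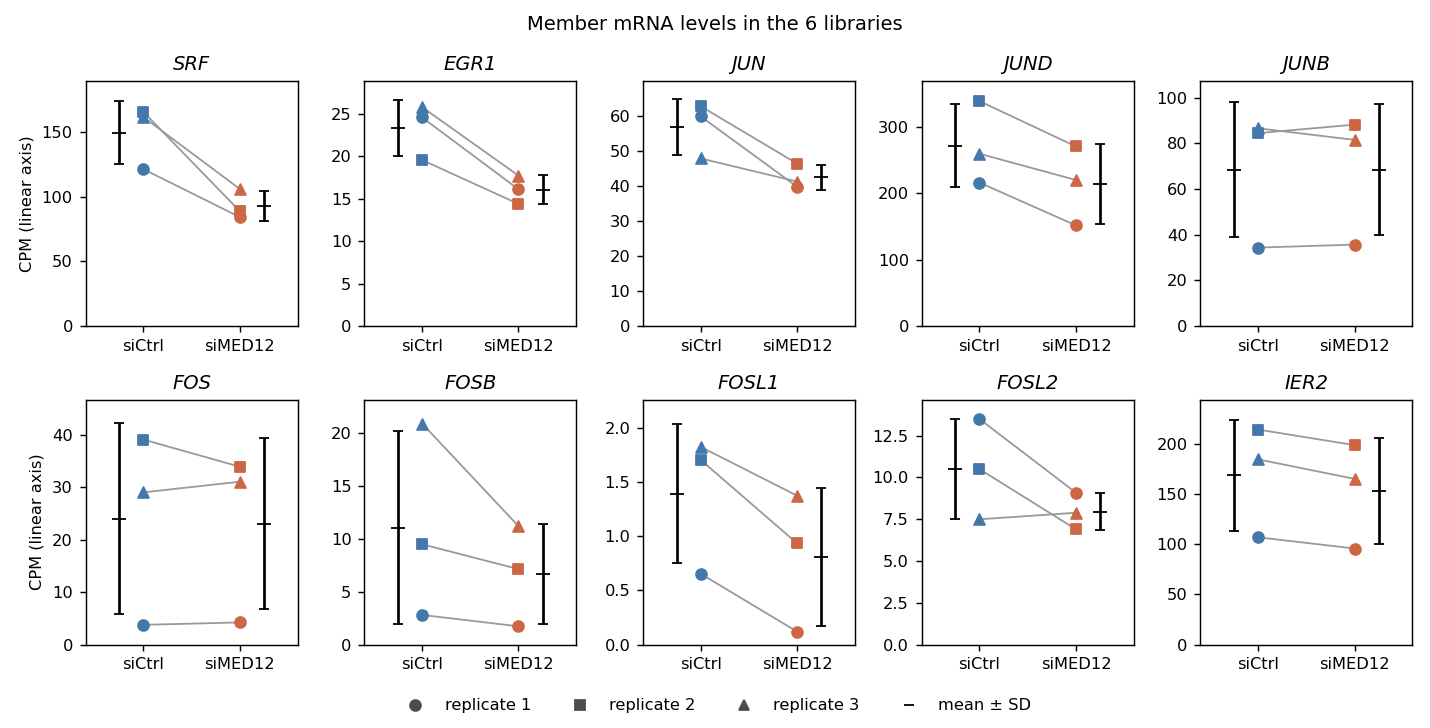
CPM of the 10 genes in each of the 6 libraries on linear axes that start at 0, with siCtrl in blue and siMED12 in orange, 1 symbol for each replicate number, lines joining libraries of the same number and bars for the mean ± SD of each group. SRF, EGR1 and JUN separate by group, whereas in FOS, FOSB, FOSL1, JUND, JUNB and IER2 both libraries numbered 1 lie below all others.

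Because the spread between replicate numbers was large for several of these genes, it was tested in a fit that held both treatment and number. All 10 genes passed an adjusted P of 0.05 in edgeR for the replicate number, against 47.1% of all genes tested. With the DESeq2 likelihood-ratio test 6 passed, against 34.9% of the genes with an adjusted P, EGR1, JUN and FOSL2 not passing and FOSL1 receiving no adjusted value. In edgeR without the treatment term 4 passed (FOS, FOSB, JUNB and IER2), against 4.17% of all genes, and without the filter 9 passed, against 24.6%, EGR1 not passing (adjusted P = 0.1). What the number marks was not given in the labels, and mitochondrial counts moved with it, as stated above. Their part in these differences was not tested.

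FOS showed the widest spread, 9.14-fold higher in the libraries numbered 2 and 7.53-fold higher in those numbered 3 than in those numbered 1 (log2 fold changes 3.19, SE 0.14, and 2.91, SE 0.14). Only 0.14% of all genes tested differed more between numbers 3 and 1. FOSB was 3.72-fold and 7.01-fold higher, and FOSL1, at its few reads, 3.47-fold and 4.3-fold. JUNB was 2.47-fold and 2.40-fold higher and IER2 2.04-fold and 1.73-fold. In each of these 5 genes the libraries numbered 1 were the lowest of both groups. JUND followed the same order of numbers as FOS at a smaller size (1.67-fold and 1.32-fold).

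SRF, EGR1, JUN and FOSL2 differed by smaller folds than FOS, FOSB, FOSL1, JUNB and IER2. SRF was 1.21-fold and 1.30-fold higher in numbers 2 and 3 than in number 1, EGR1 0.84-fold and 1.07-fold, and JUN 1.10-fold and 0.905-fold. FOSL2 went the other way from the rest of the FOS family, at 0.769-fold and 0.691-fold. The share of all genes tested that differed more between numbers 3 and 1 was 79.4% for EGR1, 70.7% for JUN, 37.5% for SRF, 35.2% for JUND and 24.5% for FOSL2.

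**Figure D4:**
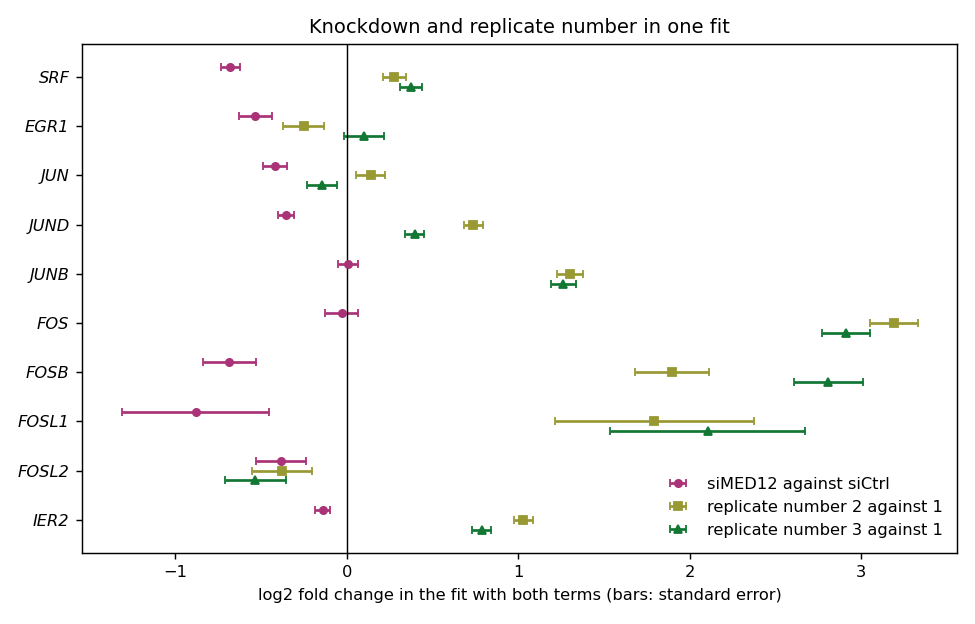
Log2 fold change (x axis) of each gene in 1 edgeR fit, for siMED12 against siCtrl (purple circles), replicate number 2 against 1 (olive squares) and number 3 against 1 (green triangles), with bars for the standard error. FOS, FOSB, FOSL1, JUNB and IER2 lie far to the right for the replicate number, and FOSL2 lies to the left.

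Per kilobase of exon, JUND was the most abundant of the group in siCtrl at 141 ± 32.3 CPM per kb (SD, n = 3), followed by IER2 at 54.7 ± 18.0, JUNB at 37.4 ± 16.2 and SRF at 35.3 ± 5.79. JUN stood at 15.7 ± 2.18, FOS at 7.52 ± 5.71 and EGR1 at 7.43 ± 1.05 CPM per kb. FOSB, FOSL2 and FOSL1 were the lowest, at 1.99 ± 1.65, 1.47 ± 0.419 and 0.74 ± 0.342. Among neighbours in this order the ranges over the libraries overlapped for IER2 and JUNB, JUNB and SRF, FOS and EGR1, and FOSB and FOSL2. The JUND level in the lowest siCtrl library (112 CPM per kb) was above the FOS level in the highest (12.3 CPM per kb). Lengths took in all annotated exonic bases of a gene and not those of 1 transcript, so the order is approximate. For IER2 and JUNB these bases include the stretches shared with opposite-strand genes.

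Genes with profiles most like those of the group were found by the root mean square difference of centred log2 CPM over the 6 libraries, among 10671 genes with a mean of at least 10 CPM. FOS was nearest to ADM, the gene of the vasoactive peptide adrenomedullin (0.103), which was at 3.51, 34.7 and 29.6 CPM in siCtrl and at 4.69, 33.8 and 32.0 CPM in siMED12. The next was GADD45B, a stress-inducible gene, at a larger distance of 0.362. JUNB was nearest to CDK5R1 (0.104) and SERTAD1 (0.105), and IER2 to ID2, an inhibitor of basic helix-loop-helix factors (0.0562), and FRAT2 (0.0942). The nearest genes to SRF were TWNK, the mitochondrial DNA helicase (0.0659), and SPOCK1 (0.077), those to EGR1 TMSB10, an actin-binding peptide (0.0736), and CTAG1B (0.0815), and those to JUN BMPR1B (0.0417) and SUSD2 (0.0517). TWNK was at 53.4, 73.8 and 63.0 CPM in siCtrl and at 36.3, 39.4 and 45.7 CPM in siMED12, lower in every siMED12 library, like SRF. For JUND the nearest were HES6 (0.0659) and ZNF628 (0.112), for FOSL2 RAD1 (0.0926) and USP31 (0.102), and for FOSB RPL36A (0.277) and GPR3 (0.284). GPR3 was also nearest to FOSL1 (0.335), followed by ENSG00000275993 (0.350).

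Other genes of the pathways were examined in lists, and without the block 1 list gene passed in all, SPRY4. SPRY4, an inhibitor of receptor tyrosine kinase signalling that ERK itself induces, went from 47.4 ± 0.280 to 29.5 ± 2.21 CPM (log2 fold change -0.68, adjusted P = 0.0424, edgeR), with paired differences of -40.8%, -39.6% and -32.9%. Its groups did not overlap, and the call was lost when any 1 library was left out and with scaling to library size only. The counts that follow are those of the blocked fit, whose backgrounds of 16.2% lower and 17.1% higher apply to each list. Without the block the other list genes named below had adjusted P-values between 0.0654 (CD44) and 0.834 (CCN1).

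Of 34 other immediate-early genes 31 were tested, of which 10 fell, 2 rose and 19 did not pass, with a median log2 fold change of -0.16. MYC fell (block log2 fold change -1.18, adjusted P = 3.91e-17, unblocked 0.586), although its level also differed widely within the groups (97.6 ± 104 CPM in siCtrl and 42.3 ± 43.7 CPM in siMED12). Within the pairs of replicate numbers MYC differed by -57.4%, -58.8% and -46.3%. In both groups it was highest in the library numbered 1 and lowest in that numbered 3. DUSP2, a nuclear phosphatase of MAP kinases, fell from 30.8 to 20.2 CPM (block adjusted P = 1.72e-06), and the orphan receptor gene NR4A1 from 50.8 to 36.6 CPM (5.61e-07). CCN2 and CCN1, matricellular proteins, rose. CCN2 was at a mean of 11.8 ± 4.14 CPM in siCtrl and 25.8 ± 9.60 CPM in siMED12, 104%, 117% and 132% higher in the 3 pairs (block log2 fold change 1.13, adjusted P = 1.48e-11, unblocked 0.166). CCN1 went from 16.7 to 21.2 CPM (block adjusted P = 0.00868).

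The 14 ERK feedback genes split, with 6 lower, 3 higher and 5 not passing (median -0.10). Besides SPRY4, DUSP4, a phosphatase of ERK, fell from 14.95 to 11.3 CPM (block adjusted P = 0.00556), and SPRED2, an inhibitor of RAF activation, from 60.9 to 48.4 CPM (7.92e-05). ETV5, an ETS factor induced by ERK, rose from 17.1 to 22.9 CPM (0.00121), DUSP6, the cytoplasmic ERK phosphatase, from 10.2 to 12.8 CPM (0.031), and SPRED1 from 42.99 to 52.7 CPM (7.22e-04). Inhibitors of the same cascade thus lay on both sides. Among the 26 RAS and MAPK cascade genes 4 rose, 4 fell and 18 did not pass (median 0.03). Both shares were near those of all genes (17.1% higher and 16.2% lower). MAPK13, a p38 isoform, rose from 31.5 to 42.3 CPM (block adjusted P = 1.36e-05), as did NRAS (80.4 to 96.8 CPM, 1.36e-04) and MAPK3, the gene of ERK1 (50.3 to 60.7 CPM, 0.00219). MAP2K3, which phosphorylates p38, fell from 87.5 to 69.2 CPM (4.47e-06), MAPK12 from 138 to 116 CPM (8.04e-05) and RPS6KA5, a kinase of histone H3 and CREB, from 14.1 to 10.95 CPM (0.0176).

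Cytoskeletal genes known as SRF targets were as mixed, with 6 higher, 5 lower and 8 not passing of 19 tested and a median of 0.04. ACTG1, cytoplasmic gamma-actin, fell from 2176 ± 189 to 1605 ± 90.0 CPM, at -25.5%, -28.7% and -24.1% in the pairs (block adjusted P = 2e-13, 0.0969 without the block). TAGLN2 fell from 704 to 578 CPM (7.98e-08) and CNN2 from 51.2 to 42.6 CPM (0.00227). TAGLN, a smooth muscle actin-binding protein, rose from 9.22 to 14.5 CPM (4.81e-05), TPM1, a tropomyosin, from 115 to 139 CPM (1.18e-05) and ZYX, a focal adhesion protein, from 56.5 to 65.6 CPM (0.00401).

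Partners of AP-1 were examined next. Of 11 tested genes for ATF, BATF, MAF and JDP factors 3 fell, 1 rose and 7 did not pass (median -0.07). MAFK, ATF3 and MAFG fell, from 88.1 to 74.3, 38.4 to 33.0 and 95.8 to 85.1 CPM (block adjusted P = 4.33e-04, 0.0188 and 0.0158), and ATF2 rose from 19.4 to 22.8 CPM (0.0451). Of 16 AP-1 target genes 8 were expressed enough to be tested, 3 fell and 5 did not pass, with a median log2 fold change of -0.39. VEGFA, the angiogenic growth factor, fell from 109 ± 20.3 to 78.9 ± 18.3 CPM (block adjusted P = 1.76e-09) and CD44, the hyaluronan receptor, from 73.1 ± 2.40 to 52.8 ± 1.86 CPM (5.02e-08). The siMED12 and siCtrl libraries did not overlap for CD44, at -24.5%, -33.0% and -25.4% in the pairs.

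**Figure D5:**
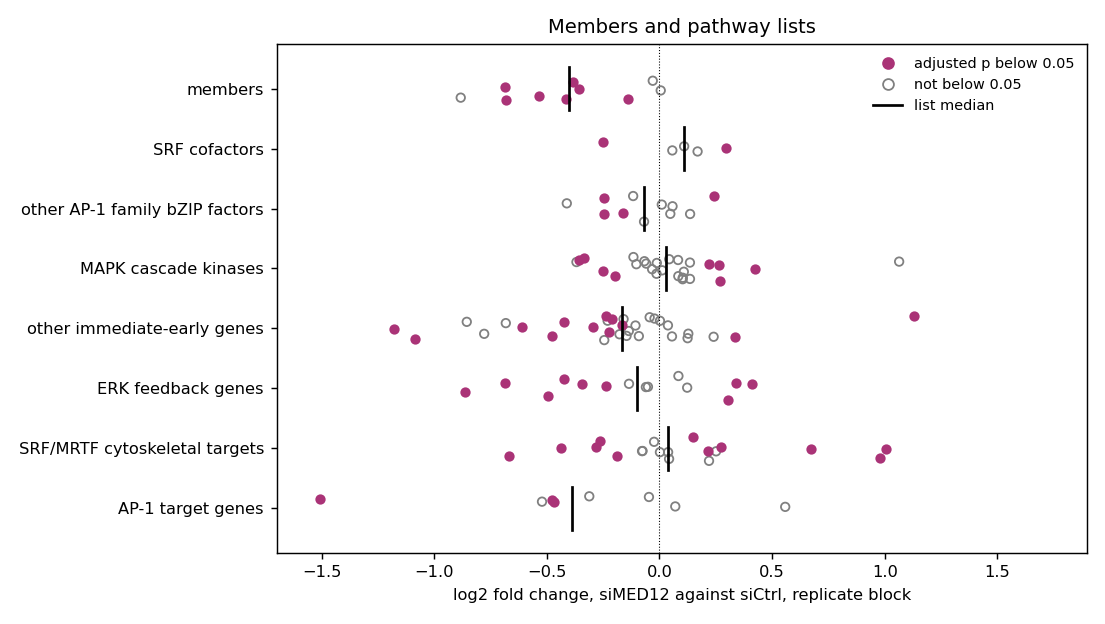
Blocked log2 fold change of siMED12 against siCtrl (x axis) for the 10 genes and for the tested genes of each list, 1 point per gene, filled where the adjusted P was below 0.05, with a black bar at the list median. The 10 genes and the AP-1 targets have medians near -0.4, and the medians of the other 6 lists plotted lie between -0.16 and 0.11.

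Markers of the labelled cell type were present. The 9 luminal prostate markers summed to 3208 to 3357 CPM in siCtrl and to 2721 to 2880 CPM in siMED12. Without the block 0 of them passed in either direction. In the blocked fit 6 fell and 1 rose, against 16.2% and 17.1% of all genes. Their median log2 fold change was -0.34, close to that of the 10 genes. Of 13 stromal, endothelial and leukocyte markers 4 were tested and 0 passed with the block, and CDH5 and CD3E were at 0 in all libraries. Their sum was 29.0 to 41.7 CPM in siCtrl and 27.4 to 44.2 CPM in siMED12, mostly from COL1A1 (19.8 and 20.1 CPM) and LUM (11.6 and 14.1 CPM).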

How the data were processed

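The authors sequenced poly(A) RNA of 22Rv1 cells with strand-specific libraries, aligned and counted reads with Rsubread against GRCh38 (p13) with a Gencode annotation, and deposited raw counts per gene and log2 CPM values of 17901 genes. The log2 CPM values deposited by the authors were recomputed from the counts in edgeR with a prior count of 2 after its filter and TMM factors, to within 4.96e-09. The handling of strand and of multiply mapping reads was not given in the sources used here.

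Counts were tested with edgeR version 4.0.16 (R version 4.3.3, quasi-likelihood F-test, two-sided, Benjamini-Hochberg over 17901 genes, threshold 0.05). Deviations from group means correlated at 0.532, 0.373 and 0.643 between libraries of the same replicate number and at -0.46 to -0.0233 otherwise. Deviations cancel within a group, so the negative values follow from the positive ones and are no separate evidence. The number was used to pair the libraries on the strength of these same data, and the blocked fit is printed wherever it changed a call. The study calls its heatmap of androgen response genes in these cells batch-corrected. Its main text does not say which libraries formed a batch. No replicates were duplicates (chi-square per degree of freedom 11.4 to 46.7). On simulated data with 200 of 17901 genes changed 2-fold, 128 were recovered without and 199 with the block. The simulation took its replicate differences and spread from the blocked fit and changed only genes with higher counts. It therefore cannot decide between the 2 fits and does not cover genes with few reads.

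Alternatives were DESeq2 version 1.42.0, limma-trend version 3.58.1, other scalings and filters, the block and leaving out libraries. The members and lists were chosen with earlier results of these data known. List genes were named, up to 3 per direction, by the largest blocked change among those with a blocked adjusted P below 0.05, at least 10 CPM and 1 sign in all pairs, or a call without the block, and the 2 nearest profiles per gene were named. Positions and exon lengths came from Gencode release 44 and promoters from RefSeq. Depth limits the precision of low genes, and all errors describe the spread between libraries.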

Additional observations from a re-analysis of the deposited data

How the results depend on the processing

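Of the 10 genes, 0 were called lower without the block, also with DESeq2 size factors, library size only, limma, a minimum mean of 1 CPM and without any 1 library. The count was 1 with the DESeq2 Wald test and 1 without the filter, SRF in both. With the replicate block it was 7, with DESeq2 size factors added 7, library size only 5, DESeq2 Wald 6, limma 6, and 5 to 6 without 1 replicate number. None was called higher under any of these. Pathway genes called lower, 1 without the block, were 0 with library size only, 3 with the Wald test, 3 without the filter, 2 at a mean of 1 CPM and 0 without any 1 library. In the paired fits they were 32, then 33 (DESeq2 size factors), 27 (library size), 22 (Wald), 33 (limma) and 30, 31 and 29 without replicate number 1, 2 or 3. Pathway genes called higher were 0 without the block, 1 with the Wald test and 1 without the filter. In the paired fits they were 17, then 16, 23, 11 and 17 in the same order, and 16, 10 and 13 without number 1, 2 or 3. For the replicate numbers, 10 genes became 6 with the DESeq2 likelihood-ratio test and 4 without the treatment term, and 9 without the filter. The cause of these shifts was not tested.

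Signs changed in FOS, FOSB, JUNB and IER2, none of them called in the fit concerned. FOS was at 0.0193 with limma, with and without the block, at 0.0139 with the block and library size only, between -0.58 and 0.494 without 1 library and between -0.115 and 0.088 with the block and 1 replicate number left out. JUNB was at -0.00697 with DESeq2 size factors, -0.00721 with the Wald test, -0.0181 at a mean of 1 CPM, -0.00245 and -0.000868 with the block and DESeq2 size factors or the Wald test, between -0.341 and 0.292 without 1 library and between -0.056 and 0.0589 with the block and 1 number left out (-0.0328 without number 1). FOSB ranged from -1.32 to 0.124 and IER2 from -0.4 to 0.0932 without 1 library. Over the single genes, 220 alternative values were computed, of which, set against the unblocked edgeR fit, 20 changed sign, 50 gained a call, 4 lost one and 146 kept both. The 4 losses were of MED12, without siCtrl replicate 1 or 2 or siMED12 replicate 1 or 2.

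Limits are the 3 libraries per group, a single cell line and time point, replicate numbers of unstated meaning, and low counts for FOSL1, FOSB and FOSL2.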
